A study of Mus musculus with 7 samples.

Results

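The genes described here are the mouse genes whose symbol is Zfp followed by a number, most of which encode zinc finger proteins that bind DNA through arrays of C2H2 fingers. They were taken as the probe sets of the value table whose platform annotation gave exactly 1 gene symbol of that form, with the value of a gene being the mean of its probe sets. This gave 171 of the 8378 genes with a single symbol, on 253 of 14229 probe sets. The 3 measured genes of the Zfp36 family (Zfp36, Zfp36l1 and Zfp36l2), whose CCCH fingers bind RNA, were kept apart, which left 168 genes on 249 probe sets. Of the 168 genes, 116 had 1 probe set and 52 had several, up to 6. RefSeq (GRCm38.p6) lists 397 protein-coding genes with such symbols, and only genes detected on every array passed the submitters' filter.

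Bone marrow cells of bone marrow transplant (BMT) recipient mice were profiled on 7 Affymetrix Mouse430_2 arrays. Mock control marrow gave 3 arrays and marrow carrying an ABCG2 transgene gave 2 (ABCG2 is a drug efflux pump), both from unsorted cells. Marrow carrying EZH2-Mt, read here as a mutant of the histone methyltransferase EZH2, came from a recipient or recipients described as MDS-like, which points to myelodysplastic syndrome, in which blood cells form poorly. That marrow was sorted on green fluorescent protein (GFP), and each fraction, GFP-positive or GFP-negative, was read on 1 array. The labels give no strain, age, transgene promoter or mouse number. P-values therefore measure only the spread between these arrays, and whether both sorted fractions came from the same mouse is not known. The titles of both ABCG2 arrays carry the tag "ser2", which the other titles lack, and if it marks a series of experiments, series and transgene cannot be told apart.

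C2H2 zinc finger proteins form the largest family of transcription factors in mammals. Many carry a KRAB domain, through which they recruit the corepressor Trim28, the histone methyltransferase Setdb1 and HP1 proteins, and a large share of these silence transposable elements. Their genes multiplied by tandem duplication and often lie side by side in clusters. In contrast, the Zfp36 family binds AU-rich elements in the untranslated tail of messenger RNAs and recruits the CCR4-NOT deadenylase, which leads to decay of the message.

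The values below are logarithms, read as base 2, and were deposited relative to the median of its probe set over the 7 arrays, so the values carry no absolute level and levels of different genes cannot be set against each other. A difference of 1 is a change of 2-fold under that reading of the scale. Over all genes, the SD within an array was 1.12 and 1.21 on the ABCG2 arrays and 0.30 to 0.44 on the other 5, and over the 168 zinc finger genes it was 0.89 and 0.97 against 0.28 to 0.46. Cell type markers differed between the groups as well. Of the 12 listed neutrophil markers 10 were measured and all 10 fell in ABCG2 against mock. The mean of the neutrophil markers ran from -0.24 to 0.04 on the mock arrays and from -5.41 to -3.78 on the ABCG2 arrays, and stood at 0.30 and 1.05 in the GFP-negative and GFP-positive fractions. Monocyte and macrophage markers fell in 7 of 7 measured of 8 listed (1.07 to 1.21 on mock, -3.08 to -3.00 on ABCG2 arrays), and 3 of 4 measured stem and progenitor markers of 8 listed rose (-0.53 to -0.12 on mock, 1.62 to 1.71 on ABCG2 arrays). B lineage markers rose in 2 of 3 measured of 9 listed, and of T and NK markers 2 rose and 1 fell among 4 measured of 8 listed. All 3 measured megakaryocyte markers of 5 listed fell, 1 of 3 measured erythroid markers of 9 listed fell, and the 1 measured of 5 stroma markers rose. Mouse Abcg2 itself fell by 0.86 ± 0.13 (SE, limma adjusted p = 0.00168) in the ABCG2 arrays, and the labels do not say whether the transgene is the mouse gene. In bulk marrow, fewer cells of a type and less RNA per cell cannot be told apart, and the part of these markers in the results on zinc finger genes was not tested.

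More zinc finger genes rose than fell in ABCG2 marrow. Between 2 ABCG2 and 3 mock arrays, 68 of the 168 genes rose (40.5%) and 21 fell (12.5%) at an adjusted p under 0.05 (limma, two-sided, Benjamini-Hochberg over 8378 genes). Over all genes, 61.8% changed, with 35.6% that rose and 26.2% that fell, so the share that rose lay near the background and the share that fell lay below it. The median difference of the 168 genes was 0.39 with quartiles of -0.17 and 1.10, against 0.15 with quartiles of -0.52 and 0.73 over all genes. Rises of 1 log2 or more were called in 43 genes, where the background share was 16.5%, and falls of that size in 6, where it was 14.3%. Both ABCG2 arrays lay above all 3 mock arrays in 82 genes (48.8%; 44.2% over all genes) and below all 3 in 30 (17.9%; 32.7% over all genes). Under quantile normalization, which forces a common spread on the arrays, 28 genes rose (16.7%; 13.2% over all genes) and 9 fell (5.36%; 16.6% over all genes). Without mock replicate 1, 70 rose (41.7%; 31.7% over all genes) and 12 fell (7.14%; 23.6% over all genes). Without mock replicate 2, 55 rose (32.7%; 29.4% over all genes) and 14 fell (8.33%; 21.8% over all genes).

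**Figure D1:**
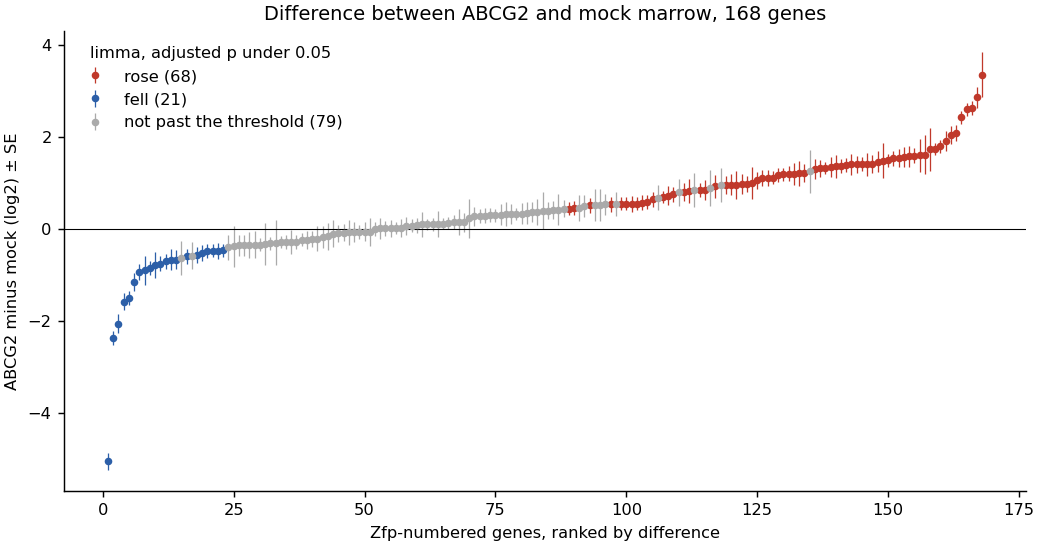
Difference between the ABCG2 and mock means (log2) of each of the 168 Zfp-numbered genes in rank order, with limma's standard error; colours mark genes that rose, fell or did not pass an adjusted p of 0.05. The differences run from -5.06 to 3.35, with 68 genes that rose and 21 that fell.

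**Figure D2:**
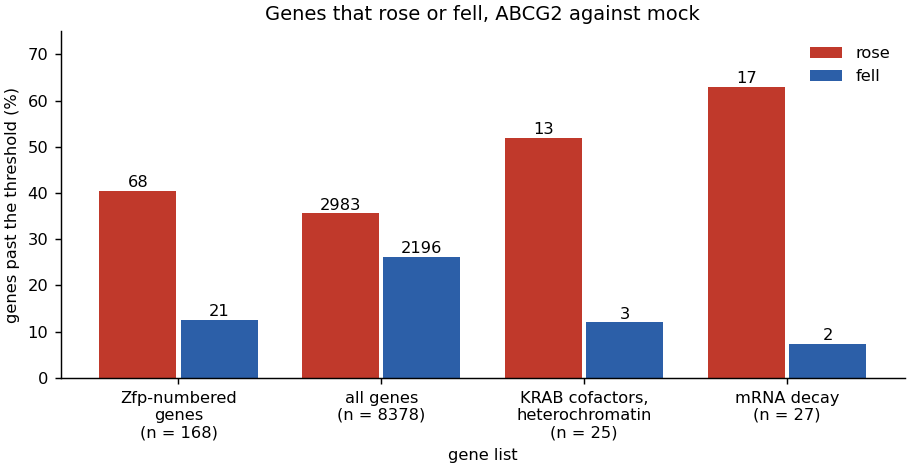
Percent of genes that rose or fell in ABCG2 against mock (limma, adjusted p under 0.05) among the 168 Zfp-numbered genes and among all 8378 genes. Further bars show 25 KRAB cofactor and heterochromatin genes and 27 mRNA decay genes, described below. Among Zfp-numbered genes the share that rose was 40.5% against 35.6% over all genes, and the share that fell was 12.5% against 26.2%.

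The 12 genes with the largest rises span 1.61 to 3.35 log2. Zfp760 led with 0.44, -0.38 and 0.00 on the mock arrays and 2.53 and 4.22 on the ABCG2 arrays. The ABCG2 arrays stood clear of the mock arrays but 1.68 apart from each other, and the difference was 3.35 ± 0.49 (SE, limma adjusted p = 0.00134), or 10.2-fold. Zfp664 had mock values of -0.66, -0.14 and 0.05 and ABCG2 values of 2.58 and 2.63. Its ABCG2 arrays nearly coincided, and it rose by 2.86 ± 0.22 (7.24-fold, limma adjusted p = 0.000103). Zfp317 stood at -0.29, -0.44 and -0.29 on mock arrays and 2.45 and 2.10 on ABCG2 arrays, and rose by 2.62 ± 0.16 (limma adjusted p = 4.19e-05). Zfp931 stood at 0.00, 0.22 and -0.08 on mock arrays and 2.66 and 2.64 on ABCG2 arrays, and rose by 2.60 ± 0.14 (limma adjusted p = 3.28e-05). For these genes the lowest ABCG2 array lay above the highest of the other 5 arrays.

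Zfp64, known as an activator of transcription at the MLL gene, rose by 2.42 ± 0.14 (limma adjusted p = 4.04e-05), and its ABCG2 values lay above 5 other arrays that ranged from -0.66 to 0.16. Zfp593, the homologue of a yeast ribosome biogenesis factor, rose by 2.08 ± 0.17, with 0.00, -0.02 and 0.40 on mock and 2.24 and 2.17 on ABCG2 arrays. Zfp362 rose by 2.04 ± 0.20 and Zfp946 by 1.92 ± 0.22. Zfp266, described as a repressor in cardiac reprogramming, rose by 1.80 ± 0.14 through 3 probe sets that differed from mock by 1.17, 1.89 and 2.34. Zfp280c, a relative of the Drosophila suppressor of Hairy wing, rose by 1.74 ± 0.12, with ABCG2 values of 1.71 and 1.68. The remaining members of this set were less even. Zfp52 rose by 1.73 ± 0.46 (limma adjusted p = 0.0168) with 0.47 and 1.99 on the ABCG2 arrays, and Zfp948 by 1.61 ± 0.42 (limma adjusted p = 0.0153) with 0.01 and 1.45. On the GFP-positive array Zfp948 stood at 0.91, above the first ABCG2 array.

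Among the 68 genes that rose, 56 had both ABCG2 arrays above all 5 other arrays (82.4%; 85.8% of all genes that rose), and in 12 an EZH2-Mt array reached the level of an ABCG2 array (17.6%; 14.2% of all genes that rose). Both EZH2-Mt arrays lay above all mock arrays in 26 of the 68 (38.2%), against 31.9% of the 2983 genes that rose over the whole table. The median rise was 1.21, against 0.95 over all genes that rose.

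The promoters of 3 of the genes that rose are printed: the 2 with the largest rises and Zfp946, which lies in the same neighbour group as Zfp760. Each is the 250 bases before the annotated start from RefSeq (GRCm38.p6), 5′ to 3′ on the strand of the gene, with matches to 11 short motifs in capitals. The window of Zfp760 is chr17:21707491-21707740 on the plus strand, that of Zfp664 is chr5:124862455-124862704 on the plus strand, and that of Zfp946 is chr17:22423952-22424201 on the plus strand.
Zfp760: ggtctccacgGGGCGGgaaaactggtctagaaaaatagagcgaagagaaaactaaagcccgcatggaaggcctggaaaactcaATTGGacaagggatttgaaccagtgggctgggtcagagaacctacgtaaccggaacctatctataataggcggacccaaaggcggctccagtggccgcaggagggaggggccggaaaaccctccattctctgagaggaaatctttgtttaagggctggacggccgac
Zfp664: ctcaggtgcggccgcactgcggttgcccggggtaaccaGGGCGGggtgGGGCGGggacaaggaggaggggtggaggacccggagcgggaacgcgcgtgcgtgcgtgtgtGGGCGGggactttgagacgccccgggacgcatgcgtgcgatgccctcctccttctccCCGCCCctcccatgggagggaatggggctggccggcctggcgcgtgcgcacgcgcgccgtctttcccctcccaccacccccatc
Zfp946: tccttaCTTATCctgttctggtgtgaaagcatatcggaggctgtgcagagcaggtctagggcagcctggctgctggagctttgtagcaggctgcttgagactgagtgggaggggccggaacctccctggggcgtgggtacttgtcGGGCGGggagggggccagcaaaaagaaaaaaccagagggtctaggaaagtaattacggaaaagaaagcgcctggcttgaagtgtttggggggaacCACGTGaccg
The window of Zfp664 holds 4 GC boxes (GGGCGG on either strand) in a sequence of 74.0% G and C. That of Zfp760 has 1 GC box and 1 CCAAT box at 54.0% G and C, and that of Zfp946 has 1 GC box, 1 E-box (CACGTG) and 1 GATA match (GATAAG).

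**Figure D3:**
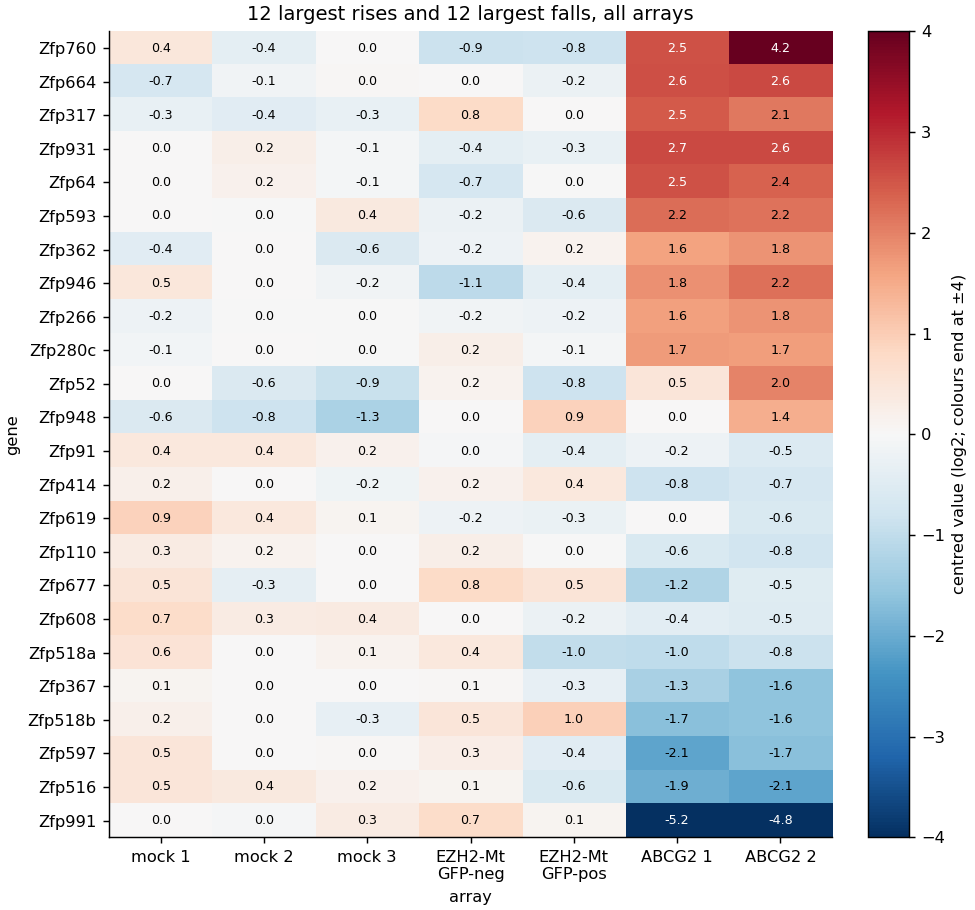
Deposited log2 values, relative to the median of each probe set, of the 12 Zfp-numbered genes with the largest rises and the 12 with the largest falls on each of the 7 arrays. The ABCG2 columns stand apart from the mock and EZH2-Mt columns in most rows; Zfp760, Zfp52 and Zfp948 differ between the ABCG2 arrays by more than 1 log2.

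Falls were fewer, and smaller apart from a handful of genes. Zfp991 stood at 0.00, -0.04 and 0.33 on mock arrays, 0.73 and 0.10 in the EZH2-Mt fractions and -5.17 and -4.76 on ABCG2 arrays. The gap was wider than that of any other of the 168 genes in either direction, and the gene fell by 5.06 ± 0.19 (33.3-fold, limma adjusted p = 9.3e-06). Zfp516, an activator of brown fat genes such as Ucp1, fell by 2.37 ± 0.15 (limma adjusted p = 5.28e-05), from 0.48, 0.38 and 0.17 on mock arrays to -1.95 and -2.11 on ABCG2 arrays. Zfp597 stood at 0.49, 0.00 and 0.04 on mock arrays, and its ABCG2 arrays lay below all 5 others with -1.67 as the higher of the pair. It fell by 2.06 ± 0.21 (limma adjusted p = 0.000342).

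Zfp518b, a partner of the H3K9 methyltransferase G9a, fell by 1.59 ± 0.19 while its EZH2-Mt values of 0.49 and 0.96 lay above all mock arrays. Its relative Zfp518a fell by 1.16 ± 0.19, and there the GFP-positive array, at -0.99, lay level with the ABCG2 arrays at -1.02 and -0.84. Zfp367, an activator of erythroid genes, fell by 1.503 ± 0.15 (limma adjusted p = 0.000273), from 0.12, 0.00 and 0.01 to -1.30 and -1.61. Zfp608, a repressor of the Rag genes in thymocytes, fell by 0.95 ± 0.17. Zfp110, an interactor of the p75 neurotrophin receptor, fell by 0.86 ± 0.15, Zfp414 by 0.76 ± 0.16 and Zfp91, a ubiquitin ligase of noncanonical NF-kB signalling, by 0.71 ± 0.16. Zfp677 (0.91 ± 0.31, limma adjusted p = 0.0421) and Zfp619 (0.79 ± 0.28, limma adjusted p = 0.0477) fell by margins close to the threshold. The ABCG2 arrays lay below all 5 others in 15 of the 21 genes that fell (71.4%), a smaller share than the 90.9% of all genes that fell. The median fall was -0.76, against -1.08 over all genes that fell.

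Of the 12 largest rises and 12 largest falls, 16 kept their direction and their side of the threshold in all alternatives. The call was lost with quantile normalization for Zfp52, Zfp593, Zfp946, Zfp414, Zfp518b, Zfp619 and Zfp677, and without mock replicate 3 for Zfp948. Zfp52, Zfp619 and Zfp677 were each lost on leaving out 3 of the 5 arrays in turn. Quantile normalization made 14 of the 24 differences smaller by more than 1.5 times. It reduced the fall of Zfp991 to -2.60 and the rise of Zfp760 to 2.04, both still past the threshold.

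Start regions of 3 genes that fell are shown for comparison with those above, in the same format. The window of Zfp597 is chr16:3872375-3872624 on the minus strand, that of Zfp367 is chr13:64153200-64153449 on the minus strand, and that of Zfp677 is chr17:21383498-21383747 on the plus strand.
Zfp597: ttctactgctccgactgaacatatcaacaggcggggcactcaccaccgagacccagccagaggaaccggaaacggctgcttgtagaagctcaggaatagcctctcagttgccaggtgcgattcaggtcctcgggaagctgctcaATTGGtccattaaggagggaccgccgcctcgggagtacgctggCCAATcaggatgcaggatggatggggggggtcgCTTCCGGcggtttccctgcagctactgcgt
Zfp367: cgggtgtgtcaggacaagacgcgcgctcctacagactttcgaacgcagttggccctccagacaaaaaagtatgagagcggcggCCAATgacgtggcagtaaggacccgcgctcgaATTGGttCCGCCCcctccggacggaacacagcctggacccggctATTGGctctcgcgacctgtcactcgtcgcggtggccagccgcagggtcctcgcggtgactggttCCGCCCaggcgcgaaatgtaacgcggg
Zfp677: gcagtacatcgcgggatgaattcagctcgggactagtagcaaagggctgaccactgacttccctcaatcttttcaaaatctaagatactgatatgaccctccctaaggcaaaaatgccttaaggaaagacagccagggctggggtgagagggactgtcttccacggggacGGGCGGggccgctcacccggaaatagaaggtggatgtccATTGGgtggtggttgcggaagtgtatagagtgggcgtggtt
The Zfp367 window holds 3 CCAAT boxes and 2 GC boxes, that of Zfp597 holds 2 CCAAT boxes and 1 ETS match (CCGGAAG), and that of Zfp677 holds 1 GC box and 1 CCAAT box.

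Promoter windows were matched for 141 of the 168 genes and compared with 27025 windows of the same length from RefSeq (GRCm38.p6), with both strands searched. The 27025 windows include those of genes not measured here, while the 168 genes were detected on every array. Windows of the measured genes alone were not counted, so the part of that filter in these shares was not tested. CCAAT was present in 52.5% of the zinc finger gene windows and 34.5% of all windows, GGGCGG in 47.5% and 33.0%, and the ETS motif CCGGAAG in 14.2% and 7.07%. The TATA box (TATAAA) was present in 5.67% and 12.98%, the NRF1 motif in 2.84% and 0.777%, and the E-box CACGTG in 7.80% and 6.04%. GATAAG was found in 7 windows (4.97%, against 6.58% of all), TGANTCA, the AP-1 motif, in 6, against 6.85% of all windows, and TGACGTCA, the cyclic AMP response element, in 6, against 1.60%. The EGR motif GCGTGGGCG was in 0 windows, against 0.54% of all, and the CArG box, the site of serum response factor, in 2. The median window held 55.2% G and C and 12 CG steps, against 52% and 6 over all windows, so windows of these genes hold more C and G, which several of the motifs are made of. By response in ABCG2, CCAAT was in 29 of 59 windows of genes that rose, 11 of 15 of genes that fell and 34 of 67 of the others, the ETS motif in 5, 5 and 10, and the GC box in 29, 5 and 33. These shares describe letters in the windows and are not evidence of binding.

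Several of these genes have known roles, and their values were read whether or not they moved. Zfp318, which B cells need for surface IgD, rose by 1.21 ± 0.20 (limma adjusted p = 0.00249), with -0.74, -0.13 and -0.46 on mock and 0.66 and 0.87 on ABCG2 arrays. Zfp326, a member of the DBIRD complex that couples splicing to elongation, rose by 1.49 ± 0.14 (limma adjusted p = 0.000255). Its mock arrays stood at 0.04, -0.13 and 0.00 and its ABCG2 arrays at 1.59 and 1.33, while the GFP-positive array stood at -1.85, below the mock arrays. Zfp281, a factor of pluripotent cells, fell by 0.47 ± 0.15 (limma adjusted p = 0.0289), and Zfp292 by 0.60 ± 0.16 (limma adjusted p = 0.0180). The call on Zfp281 was lost in several settings, and that on Zfp292 without ABCG2 replicate 2.

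Further genes of known function did not pass the test. Among those that act on retroviruses or imprinted loci, the difference was 0.39 for Zfp809, a repressor of endogenous retroviruses, and 0.10 for Zfp568, a repressor of the placental Igf2 transcript. It was -0.29 for Zfp445, a guardian of genomic imprints. The 2 probe sets of Zfp445 disagreed, at -0.86 (limma adjusted p = 0.0019, over probe sets) and 0.28 (limma adjusted p = 0.261, over probe sets). The ABCG2 arrays of Zfp809 stood at -0.05 and 0.97, one within and one above the mock range of -0.44 to 0.65. Zfp335, needed in T cell development, differed by 0.02, Zfp746, known as PARIS, by 0.06, Zfp148, also called ZBP-89, by 0.09 and Zfp263 by 0.27. Zfp384, the mouse counterpart of a fusion partner in B cell leukaemia, differed by -0.35 (limma adjusted p = 0.0691), Zfp131 by -0.17 and Zfp322a by 0.53. Zfp106, an RNA-binding protein of motor neurons, differed by 0.43 (limma adjusted p = 0.0774). Of its 4 probe sets 1 rose, by 0.85 (limma adjusted p = 0.0031, over probe sets). Among the 6 of Zfp148, 1 rose, by 0.70 (limma adjusted p = 0.0107, over probe sets). Zfp217, a gene amplified in tumours, had ABCG2 arrays on opposite sides of the mock arrays, at -1.36 and 0.51. Its difference was -0.30 with both, 0.64 without ABCG2 replicate 1 and -1.24 without ABCG2 replicate 2. Zfp57, Zfp143, Zfp260, Zfp423, Zfp521, Zfp609 and Zfp706 were not among the measured genes.

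Zfp207, a spindle assembly factor also called BuGZ, was the only gene of the 52 with several probe sets in which probe sets passed the test in opposite directions. One rose by 0.46 (limma adjusted p = 0.0286, over probe sets) and one fell by 1.25 (limma adjusted p = 0.00912, over probe sets), and the mean over probe sets was -0.36 (limma adjusted p = 0.200). All probe sets had the same sign in 35 of the 52 genes and mixed signs in 17. The median distance between the highest and lowest probe set of a gene was 0.61, and in 14 genes it was 1 or more. Counted as probe sets, 89 of 249 rose and 34 fell, against 32.7% and 25.9% of all 14229 probe sets.

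Because KRAB zinc finger genes lie in clusters, the genes were also grouped by position. Neighbours with at most 2 other protein-coding genes between them, in the gene order of RefSeq (GRCm38.p6), formed 22 groups with 76 genes, and 92 genes lay alone. Only measured genes were grouped, so a gene counted as alone may lie beside zinc finger genes that were not measured. Genes within groups rose in 39.5% and fell in 7.89%, and genes that lay alone rose in 41.3% and fell in 16.3%. The largest group, 14 genes from Zfp677 to Zfp946, held 7 that rose and 1 that fell, with a median of 0.52. It includes Zfp760, Zfp946, Zfp52 and Zfp948 of the largest rises as well as Zfp677 of the falls, and its differences run from -0.91 to 3.35. The second, 10 genes from Zfp458 to Zfp729a, held 2 that rose (Zfp58 by 1.10 and Zfp874a by 0.64), 0 that fell and a median of 0.12. The third, 6 genes from Zfp398 to Zfp746, held 3 that rose, Zfp777 by 1.41, Zfp956 by 1.31 and Zfp398 by 1.17, and a median of 0.85. In the group of Zfp955a, Zfp955b, Zfp81 and Zfp101, the first 3 rose by 1.40, 0.54 and 1.46 while Zfp101 fell by 0.67. Across the 22 groups, 14 held rises alone, 3 held falls alone, 3 held both directions and 2 held no call. Of the 22 groups 13 were pairs, and most groups with rises alone held a single gene that rose. No background was counted for this tally, so it does not show whether neighbours share a direction. Near-identical neighbours such as Zfp955a and Zfp955b or Zfp729a and Zfp729b may share probe sequence, so their values are uncertain.

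**Figure D4:**
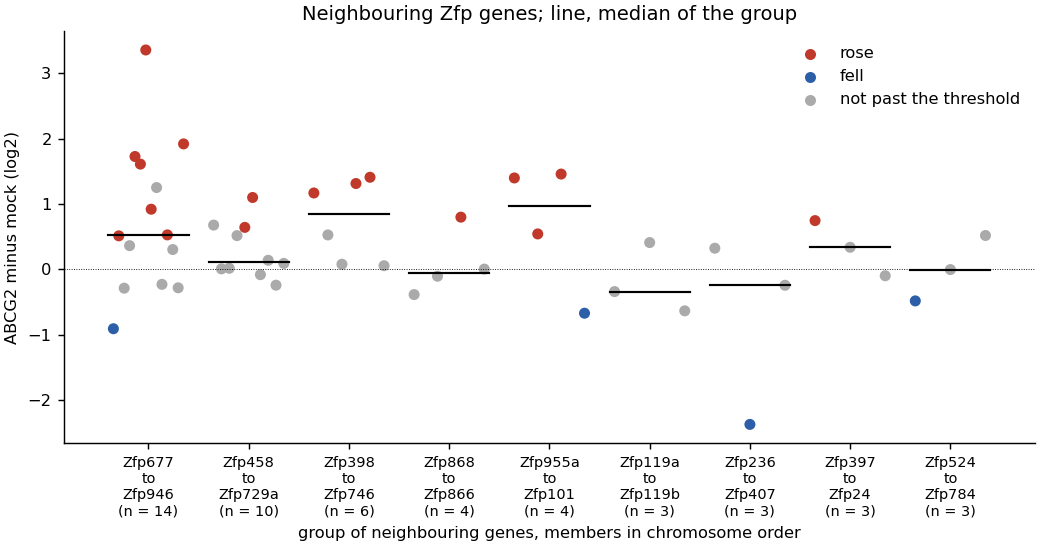
Difference between ABCG2 and mock means (log2) of the Zfp-numbered genes in the 9 neighbour groups with 3 or more measured genes, 1 point per gene, coloured by whether the gene rose, fell or did not pass. The group from Zfp677 to Zfp946 spans -0.91 to 3.35, and the group from Zfp458 to Zfp729a stays between -0.24 and 1.10.

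The proteins through which KRAB zinc finger proteins act were read from a list of 31 cofactor and heterochromatin genes, of which 25 were measured. Of these, 13 rose and 3 fell, with a median of 0.57 beside 0.15 over all genes, where 35.6% rose and 26.2% fell. Trim28, the corepressor bound by KRAB domains, stood at -0.32, 0.00 and -0.08 on mock arrays and 0.95 and 1.10 on ABCG2 arrays, and rose by 1.16 ± 0.15 (limma adjusted p = 0.000888). Setdb1, the H3K9 methyltransferase it recruits, rose by 0.86 ± 0.15 (limma adjusted p = 0.00285). The HP1 gene Cbx1 rose by 1.69 ± 0.14 and Morc2a, an ATPase of the HUSH silencing pathway, by 1.45 ± 0.18. The 3 that fell were Resf1, a regulator of retroelement silencing, by 1.83 ± 0.17 (limma adjusted p = 0.000234), Morc3 by 1.06 and the chromatin remodeller Atrx by 0.42. With quantile normalization 8 of the 25 rose and 2 fell, and the rises of Cbx1 and Trim28 were 0.84 and 0.68.

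The Zfp36 family split. Zfp36l1, which together with its relative restrains proliferation in developing B cells, stood at -0.58, 0.16 and -0.02 on mock arrays, 0.10 and -0.51 in the EZH2-Mt fractions and 2.89 and 2.85 on ABCG2 arrays. It rose by 3.02 ± 0.23 (8.10-fold, limma adjusted p = 9.26e-05), and its 2 probe sets gave 3.24 and 2.80. With quantile normalization the rise was 1.80 (limma adjusted p = 0.0144). Zfp36, or tristetraprolin, the founder of the family and a brake on Tnf, stood at -1.01, -0.28 and 0.00 on mock arrays and -0.27 and 0.65 on ABCG2 arrays, a difference of 0.62 ± 0.37 that did not pass (limma adjusted p = 0.186). With the replicate number as a block the limma adjusted p was 0.0133. In that fit mock replicate 3 has no ABCG2 partner and does not bear on the difference. The shared numbers are not known to mark pairs. Its higher values were in the EZH2-Mt fractions, 1.31 GFP-negative and 1.06 GFP-positive, which lay 1.74 and 1.49 above the mock mean and above the highest mock array. Zfp36l2 had the smallest difference of the family, 0.32 ± 0.19 (limma adjusted p = 0.175), and stood at 0.31 and 0.14 in the EZH2-Mt fractions.

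**Figure D5:**
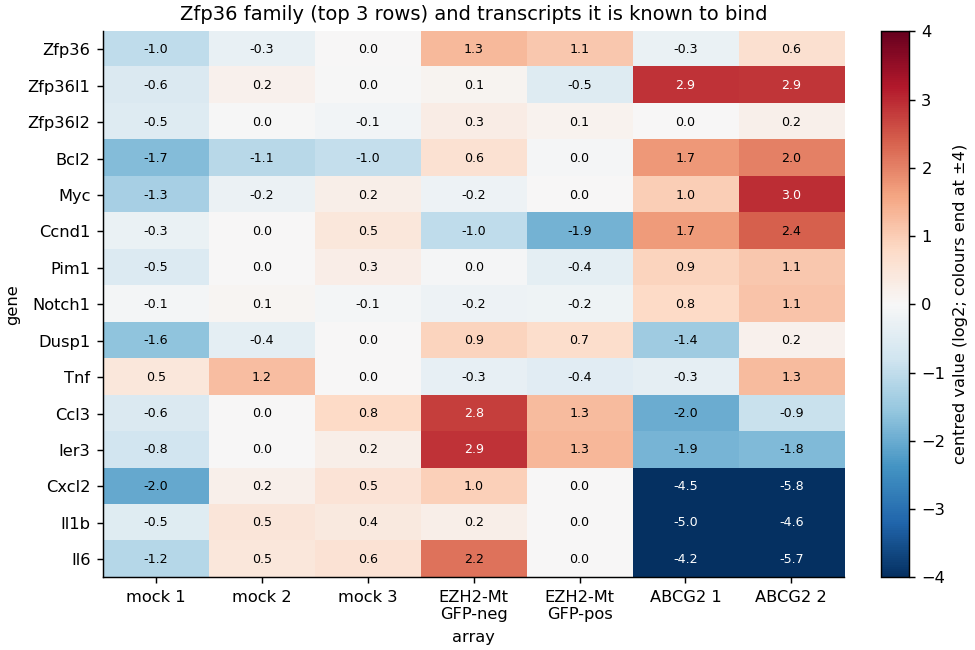
Deposited log2 values as a heatmap, with 1 row per gene and 1 column per array, in the order mock, EZH2-Mt GFP-negative, EZH2-Mt GFP-positive and ABCG2. The top 3 rows are Zfp36, Zfp36l1 and Zfp36l2, and the rows below are the 12 measured transcripts known to be bound by the family. Zfp36l1 stands at 2.89 and 2.85 in ABCG2 alone, while the higher values of Zfp36 are the EZH2-Mt arrays at 1.31 and 1.06.

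Printed here are the start regions of Zfp36 and Zfp36l1, the 2 family members with a matched promoter window. Zfp36l2 had none. Whether the motifs in them bear on the values was not tested. The Zfp36 window is chr7:28379229-28379478 on the minus strand and the Zfp36l1 window chr12:80113014-80113263 on the minus strand, both from RefSeq (GRCm38.p6), with motif matches in capitals as above.
Zfp36: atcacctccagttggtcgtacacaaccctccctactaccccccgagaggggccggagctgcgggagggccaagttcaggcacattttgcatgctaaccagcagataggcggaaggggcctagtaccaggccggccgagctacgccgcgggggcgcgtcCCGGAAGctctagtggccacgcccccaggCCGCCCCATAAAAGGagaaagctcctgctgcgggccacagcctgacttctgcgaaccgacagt
Zfp36l1: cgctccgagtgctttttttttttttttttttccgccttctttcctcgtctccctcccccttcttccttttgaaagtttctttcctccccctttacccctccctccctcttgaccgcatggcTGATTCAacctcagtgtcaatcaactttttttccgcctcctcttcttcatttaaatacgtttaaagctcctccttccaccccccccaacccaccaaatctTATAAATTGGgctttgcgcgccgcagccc
The Zfp36 window has 1 ETS match and 1 GC box that overlaps a CArG box, at 64.8% G and C. The Zfp36l1 window has 1 AP-1 match and 1 TATA box that overlaps a CCAAT box, at 48.4% G and C.

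Of 30 listed genes of messenger RNA decay 27 were measured, of which 17 rose (63.0%) and 2 fell (7.41%), with a median of 0.52, beside 35.6%, 26.2% and 0.15 over all genes. The rises were modest, led by the deadenylases Parn (1.59 ± 0.19, limma adjusted p = 0.000614) and Pan3, a subunit of the PAN complex (1.001 ± 0.24, limma adjusted p = 0.0100), followed by the CCR4-NOT subunit Cnot10 (0.999 ± 0.13) and the decapping factor Edc3 (0.93 ± 0.18). The 2 that fell were the kinase genes Mapkapk2, by 0.92, and Mapk14, by 0.88, whose products phosphorylate and inhibit Zfp36. With quantile normalization 3 of the 27 rose, where 13.2% of all genes did, and the calls on Parn (0.89, limma adjusted p = 0.0721) and Pan3 (limma adjusted p = 0.0872) were lost. The count that rose was between 9 and 12 when any single array was left out (9 without ABCG2 replicate 1, 11 without mock replicate 2, mock replicate 3 or ABCG2 replicate 2). Among 14 transcripts known to be bound by the family, 12 were measured, with 5 that rose and 5 that fell (41.7% each, beside 35.6% and 26.2% over all genes) and a median of -0.03. The inflammatory transcripts Il6 (-4.91), Il1b (-4.90), Cxcl2 (-4.74), Ier3 (-1.63) and Ccl3 (-1.51) fell, while Bcl2 (3.14), Myc (2.42), Ccnd1 (1.98), Pim1 (1.08) and Notch1 (0.9996) rose. Tnf, at -0.10, and Dusp1, at 0.04, did not pass. The markers of neutrophils and monocytes fell on the same arrays, as given above, and their part in these values was not tested.

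The EZH2-Mt fractions were compared with mock by size alone. With 1 array a fraction there is no test, so a gene was counted where both EZH2-Mt arrays lay beyond all mock arrays and at least 2-fold from the mock mean. That held above mock for 0 of the 168 genes (1.22% of all genes) and below mock for 0 (1.16% of all genes). With quantile normalization, which forces a common spread on the arrays, the counts were 12 and 6. The share over all genes was not counted there, so these 2 counts have no background beside them. At 1.5-fold, 13 genes lay above mock (7.74%; 5.82% of all genes) and 6 below (3.57%; 4.2% of all genes). The 13 were Zfp3, Zfp40, Zfp46, Zfp90, Zfp213, Zfp397, Zfp398, Zfp458, Zfp672, Zfp784, Zfp930, Zfp948 and Zfp956, and 7 of them also rose in ABCG2 (53.8%; 51.8% of the 488 genes above mock over the whole table). Both comparisons share the mock arrays. The 6 below mock were Zfp53, Zfp326, Zfp472, Zfp619, Zfp760 and Zfp955b. Zfp760, which rose most in ABCG2, stood at -0.87 and -0.82 in the EZH2-Mt fractions. Zfp956, named here after its values were seen, stood at -0.90, -1.07 and -0.76 on mock arrays, 0.00 and 0.45 on EZH2-Mt arrays and 0.20 and 0.61 on ABCG2 arrays, so that the mock arrays were the low ones.

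Between the sorted fractions, 2 of the 168 genes were at least 2-fold higher in GFP-positive cells (1.77% of all genes) and 4 at least 2-fold lower (1.34% of all genes). The higher ones were Zfp934, at 1.10 in GFP-positive and 0.00 in GFP-negative cells, and Zfp637, at 0.00 and -1.03, followed by Zfp219, a cofactor of Sox9, with a difference of 0.94, Zfp948 with 0.91 and Zfp87 with 0.70. The lower ones were Zfp518a (0.44 GFP-negative, -0.99 GFP-positive), Zfp770 (-0.39 and -1.56), Zfp51 (0.00 and -1.08) and Zfp326, whose difference was -1.07, followed by Zfp52 at -0.98. At 1.5-fold, 12 genes were higher in GFP-positive cells (7.88% of all genes) and 26, or 15.5%, were lower (6.65% of all genes). For scale, 3, 2 and 1 of the 168 genes differed by 2-fold or more within the 3 pairs of mock arrays, and 14 between the ABCG2 arrays. Of all 8378 genes, 135, 155 and 30 differed within the mock pairs and 364 between the ABCG2 arrays. At 1.5-fold in either direction, 38 genes differed between the fractions, 38 between the ABCG2 arrays, and 19, 41 and 11 within the pairs of mock arrays. The counts over all 8378 genes were 1217 between the fractions, 1063 between the ABCG2 arrays, and 547, 742 and 291 within the mock pairs. With quantile normalization, 7 genes were at least 2-fold higher and 19 lower in GFP-positive cells. The share over all genes was not counted under that normalization, so these 2 counts have no background beside them. The median difference between the fractions was -0.12 in zinc finger genes and 0.01 over all genes. The spiked poly(A) control transcripts, medians of 12 probe sets, stood at -0.03 to 0.01 on mock arrays, 1.77 on the GFP-negative, 3.50 on the GFP-positive and -1.09 and -1.57 on the ABCG2 arrays. The hybridization controls, medians of 7 probe sets, stood at -0.33 to 0.07, 0.96, 2.22, -0.16 and -0.25 in the same order. The erythroid markers had means of -0.97 to 0.84 on mock arrays, 0.64 on the GFP-negative and 1.82 on the GFP-positive array. The part of these differences between arrays in the gene values was not tested.

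The mock arrays were not alike in these genes. Mock replicate 1 was the highest of the 3 in 108 of the 168 genes (64.3%), against 35.7% of all genes, and lay a median of 0.23 above the mean of the other mock arrays, against -0.01 over all genes. The median SD over the mock arrays was 0.22 in zinc finger genes and 0.15 over all genes. The ABCG2 arrays differed from each other by 1 log2 or more in 14 of the 168 genes and in 364 of all 8378, and 13 of the 14 lay in a neighbour group.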

How the data were processed

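RNA of bone marrow cells was hybridised to 7 Mouse430_2 arrays. The deposited values are log2 signals (base 2 assumed, since the file headers do not name it and natural logs were not excluded) centred on each probe set's median. Per the file headers, probe sets were kept with a raw signal of 3 to 120534.25 that were called Present or Marginal on every array (100%). The submitters' processing notes name MAS5 with no version, and scaling between arrays is not given in the sources used here. Of 16309 probe sets, 54 controls were set apart. Of the 16255 others, 14229 had 1 symbol, 483 several and 1543 none in the platform annotation. 10 Zfp probe sets with several symbols were left out. RefSeq (GRCm38.p6) gene IDs matched 14203 probe sets and changed 0 symbols.

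Genes (mean of probe sets) were fitted with limma 3.58.1 (R 4.3.3, lmFit and eBayes, two-sided, Benjamini-Hochberg over 8378 genes) on 3 mock and 2 ABCG2 arrays, and errors are limma's standard errors. The number of arrays limits the precision. The script was tested on simulated data. Alternatives were other summaries of probe sets, quantile normalization, array medians centred, array weights, a robust prior, a replicate block, a 1.5-fold threshold and each array left out. The members and lists were chosen with earlier results of these data known.

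Named genes were the 12 largest rises and falls past the threshold, the Zfp36 family, genes past 2-fold on both EZH2-Mt arrays (0), the 5 largest differences each way between the sorted fractions, genes of known role, genes whose probe sets were called in opposite directions, and the 4 largest called cofactor and decay genes; others named in neighbour groups, bound transcripts and the 1.5-fold counts complete those counts.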

Additional observations from a re-analysis of the deposited data

How the results depend on the processing

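The number of arrays, 3 and 2, and the unequal spread between them limit these results. Quantile normalization gave 28 zinc finger genes higher and 9 lower in ABCG2, where 13.2% of all genes rose and 16.6% fell. It gave 8 cofactor genes higher, and 3 decay genes higher and 0 lower. It also gave 12 above and 6 below mock on both EZH2-Mt arrays, and 7 higher and 19 lower in GFP-positive cells. For these EZH2-Mt counts the share over all genes was not counted under that normalization. A minimum of 1 log2 left 43 higher and 6 lower. At 1.5-fold the EZH2-Mt counts were 13 above and 6 below mock, and 12 higher and 26 lower in GFP-positive cells. Leaving out each array gave 55 to 70 higher and 12 to 18 lower, 9 to 12 decay genes higher, 0 to 1 above mock and 0 to 2 below mock on EZH2-Mt arrays. The cause of these shifts was not tested. The replicate block gave 57 higher, 17 lower and 10 decay genes higher, where 30.7% of all genes rose and 23.7% fell. Replicate numbers are shared by only 2 pairs, whose deviations from the group means correlate at 0.07 and -0.06. With 2 ABCG2 arrays those deviations are mirror images of each other, so the correlations cannot show whether the numbers mark pairs. Centring array medians moved the median of all genes from 0.15 to 0.09 and quantile normalization to 0.05. Of 58 named genes, 40 passed, 25 of them in every setting, and 0 of the 40 changed sign. Signs changed for genes that had not passed. With quantile normalization Zfp148 was -0.015 and Zfp335 -0.10. With array medians centred Zfp335 was -0.051 and Zfp746 -0.0099, with array weights Zfp335 was -0.011, and with the replicate block Zfp335 was -0.0047 and Zfp746 -0.090. Leaving out each array gave ranges of -0.021 to 0.051 for Zfp335, -0.12 to 0.23 for Zfp746, -1.24 to 0.64 for Zfp217, -0.0075 to 0.20 for Zfp568, -0.35 to 0.18 for Zfp87, -0.50 to 0.16 for Zfp131, -0.64 to 0.068 for Zfp51, -0.12 to 0.90 for Zfp809 and -0.40 to 0.86 for Zfp934.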
